A study of Mus musculus with 10 samples.

Results

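Cellular senescence and inflammation were followed here through 9 genes, namely the cell cycle inhibitors Cdkn1a, Cdkn2a and Cdkn2b, the cytokines Il1b, Il6 and Tnf, the chemokines Ccl2 and Cxcl1, and the lysosomal enzyme Glb1. They were taken by gene name from RNA-seq counts of the mouse cochlea, which cover 54532 genes, and all 9 were found once. The cochleae came from 12-month-old mtKeima mice, a transgenic strain of mixed background that carries a mitochondrial pH reporter. The 5 NR-treated mice drank nicotinamide riboside (NR), a precursor of NAD+, at 7 mg/ml (24 mM) from 2 months of age for 10 months, and the 5 non-treated mice, labelled Vehicle, drank regular water. The reporter was shared by both groups. The labels give the sex as Female and the study's methods describe male mice, and in all 10 libraries the Y-linked gene Ddx3y lay between 64.5 and 85.0 CPM (reads of a gene scaled to a common library size) while Xist lay between 0.0882 and 0.405 CPM. The labels do not say whether one or both ears of a mouse went into a library.

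A senescent cell has left the cell cycle for good while remaining metabolically active. The products of Cdkn1a (p21) and Cdkn2a (p16INK4a) hold it there by blocking the cyclin-dependent kinases (CDKs) that inactivate the retinoblastoma protein. Such cells commonly secrete cytokines, chemokines and proteases, the senescence-associated secretory phenotype (SASP), which is driven in large part by NF-kB, and their lysosomal beta-galactosidase, encoded by Glb1, is the basis of the usual stain. The same cytokines are also made by macrophages and other immune cells, which reside in the cochlea, and with age senescence and inflammation markers are studied in hearing loss.

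Libraries held 17060379 to 24419230 counted reads, and 18329 genes passed the filter on low counts. Of the 9 genes, 7 passed and were tested, and Cdkn2a and Il6 did not. No gene of the 18329 passed an adjusted p of 0.05 in the quasi-likelihood test of edgeR (smallest adjusted p 0.224), while 1780 had an unadjusted p of 0.05 or less. A DESeq2 fit of the same counts called 52 genes higher and 50 lower at an adjusted p of 0.05, with none of the 7 tested members among them. Markers of hair cells, stria vascularis, spiral ganglion neurons and Schwann cells were detected in every mouse, together with markers of macrophages, neutrophils and bone. Of the 8 skeletal muscle markers tested 7 were higher in NR-treated mice at an unadjusted p of 0.05. Summed levels were 18.0, 34.0, 929, 95.1 and 683 CPM in NR-treated mice 1 to 5. They were 89.3, 23.3, 18.5, 16.75 and 17.1 CPM in non-treated mice 1 to 5, so NR-treated mice 1 and 2 lay below non-treated mouse 1. Of 9 adipocyte markers 9 had log2 fold changes above 0 and 5 were higher at an unadjusted p of 0.05 (median 1.34). Of 9 markers of stria vascularis and fibrocytes 9 lay below 0 and 5 were lower at that threshold (median -0.51). Of 10 hair cell markers 10 lay below 0 and 2 were lower (median -0.52). In hair cell markers, non-treated mice 3 and 4 had sums of 405 and 458 CPM. The other non-treated mice had 153 to 179.6 CPM, within the NR-treated range of 141.7 to 253.5 CPM. For stria vascularis and fibrocytes, the same mice 3 and 4 had 7078 and 6799 CPM. There the other non-treated mice had 4248 to 5019 CPM, within the NR-treated range of 3721 to 5590 CPM. Member levels were related to the skeletal muscle and adipocyte markers over the 10 mice, as given below. The part of any of these markers in the differences between groups was not tested.

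The stretches of DNA just before the start site are shown for 4 of the inducible genes, with the letters of promoter motifs marked. They were read from RefSeq windows of build GRCm38.p6, in which 8 of the 9 genes had an entry and Ccl2 had none, and each is the 150 bases before the start, 5′ to 3′ on the strand of the gene. Capitals mark the TATA box letters TATAAA in Il1b and Tnf, and in Il6 and Cxcl1 the letters that match the kB motif, the binding site of NF-kB. Their positions are chr2:129371140-129371289 (minus strand) for Il1b, chr17:35202008-35202157 (minus strand) for Tnf, chr5:30012964-30013113 (plus strand) for Il6 and chr5:90891095-90891244 (plus strand) for Cxcl1.
Il1b: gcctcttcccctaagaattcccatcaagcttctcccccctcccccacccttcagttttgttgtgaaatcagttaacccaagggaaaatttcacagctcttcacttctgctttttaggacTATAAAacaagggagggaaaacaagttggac
Tnf: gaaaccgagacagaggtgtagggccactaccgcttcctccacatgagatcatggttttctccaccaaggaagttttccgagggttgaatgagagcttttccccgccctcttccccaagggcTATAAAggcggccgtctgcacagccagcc
Il6: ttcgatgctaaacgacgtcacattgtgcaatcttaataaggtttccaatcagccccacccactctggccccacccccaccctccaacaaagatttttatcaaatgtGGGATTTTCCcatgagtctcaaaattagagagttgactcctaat
Cxcl1: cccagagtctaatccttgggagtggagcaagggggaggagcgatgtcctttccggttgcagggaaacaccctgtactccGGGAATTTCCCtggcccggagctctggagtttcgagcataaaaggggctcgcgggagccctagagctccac

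Both strands were searched in the whole window, from 250 bases before to 50 after the start. In Il6 the kB match begins 44 bases before the start. In Cxcl1 it begins 71 bases before on the forward strand and 70 before on the reverse. This pair of overlapping matches makes 1 stretch, which is palindromic apart from its central base. TATAAA begins 31 bases before the start of Il1b and 29 before that of Tnf, and neither of these windows held a kB match. Of 32851 mouse promoter windows of the same length, 4.51% held the kB motif and 13.6% held TATAAA. The AP-1 motif TGANTCA, found in 7.81% of windows, was present in Il6 and in Glb1. The GC box GGGCGG, found in 35.7% of windows, was present in Cdkn1a, Cdkn2a, Cdkn2b, Tnf and Glb1.

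Per length of transcript, the 9 genes spanned a wide range of levels. Cdkn1a led with a mean of 27.1 RPKM (CPM divided by the gene length in kilobases) over the 10 mice, followed by Glb1 with 13.3 RPKM. Il1b came next with 1.82 RPKM, then Cdkn2b with 1.41, Tnf with 1.04, Ccl2 with 0.919 and Cxcl1 with 0.644 RPKM. Cdkn2a had 0.218 RPKM and Il6 0.0421 RPKM. Cdkn1a was above Glb1, and Glb1 above Il1b, in 10 of 10 mice. Il1b was above Cdkn2b and Tnf above Ccl2 in only 6 of 10 mice, so these neighbours were not separated from each other. Cdkn2b was above Tnf and Ccl2 above Cxcl1 in 8 of 10 mice. Cxcl1 was above Cdkn2a and Cdkn2a above Il6 in 9 of 10 mice. Among the 33224 genes with at least 1 read, Cdkn1a stood at percentile 93.9 and Il6 at percentile 23.4.

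Of the 3 cell cycle inhibitors, Cdkn1a was higher in NR-treated mice at the unadjusted threshold, Cdkn2b did not pass it and Cdkn2a was too low to test. Cdkn1a (chromosome 17, 29090976 to 29100727, plus strand, mm10) had 109.1, 91.9, 116.5, 98.4 and 99.7 CPM in NR-treated mice 1 to 5 and 96.7, 77.6, 97.0, 98.0 and 79.3 CPM in non-treated mice 1 to 5. The 2 lowest values were non-treated mice 2 and 5 and the 4 highest were NR-treated, but NR-treated mouse 2 lay below 3 of the non-treated mice, so the groups overlapped. The mean was 103.1 ± 9.68 CPM in NR-treated and 89.7 ± 10.3 CPM in non-treated mice (SD, n = 5 each). This is a log2 fold change of 0.20 with a standard error of 0.0887 and a 95% interval of 0.0059 to 0.40, with an edgeR adjusted p of 0.504 (unadjusted p of 0.0445). The exact permutation test over the 252 labelings, whose smallest two-sided p is 0.00794, gave p = 0.0873. Of the 7 members tested, 1 was thus higher and 0 were lower at an unadjusted p of 0.05, beside 4.83% of all genes higher, 4.88% lower and 9.71% in either direction, so that 1 call in 7 genes is close to this background. In sign alone, 6 of the 7 had a log2 fold change above 0 and 1 below it, where 52.9% of all genes lay below 0. The unadjusted p of edgeR rose above 0.05 without NR-treated mouse 1 (adjusted p = 0.728), NR-treated mouse 3 (adjusted p = 0.795), non-treated mouse 2 (adjusted p = 0.523) or non-treated mouse 5 (adjusted p = 0.598), while the log2 fold change stayed between 0.16 and 0.25. An antisense gene, AC167363.2, covers 7.68% of the exonic bases of Cdkn1a, and the counting mode did not separate strands. The effect of this overlap on the count of Cdkn1a was not tested. Of the 50-base stretches of its transcripts, 8.49% also occur in transcripts of other genes.

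Cdkn2b (chromosome 4, 89306299 to 89311039, minus strand), which encodes p15INK4b, an inhibitor of CDK4 and CDK6, had 1.64, 1.34, 1.99, 1.92 and 2.32 CPM in NR-treated mice 1 to 5. The non-treated mice had 2.58, 1.35, 3.28, 1.72 and 1.44 CPM. The groups overlapped throughout, and the 2 highest values were non-treated mice 3 and 1. The log2 fold change was -0.18 (standard error 0.273, 95% interval -0.78 to 0.43, edgeR adjusted p = 0.844), and without non-treated mouse 3 it was 0.07.

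Cdkn2a (chromosome 4, 89274471 to 89294653, minus strand) yields p16INK4a and, from another first exon, p19ARF, which stabilises p53. Counts per gene do not separate these products. It received 13, 2, 14, 1 and 3 reads in NR-treated mice 1 to 5 and 9, 6, 2, 5 and 0 reads in non-treated mice 1 to 5. In 5 of the 10 mice it was at or under 3 reads, the limit that a count of 0 allows. In the fit of all 33224 genes with a read, in which 7.46% had an unadjusted p of 0.05 or less, its log2 fold change was 0.62 with a standard error of 0.776 (edgeR adjusted p = 0.779), so a difference was not detectable at this depth. None of the 50-base stretches of its transcripts was shared with Cdkn2b, its neighbour on the chromosome, or with any other gene.

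The other cell cycle genes give the setting of these 3. Among the CDK inhibitors, Cdkn1b (p27) had 51.0 RPKM, Cdkn2d (p19INK4d) 39.2, Cdkn1c (p57) 28.9 and Cdkn2c (p18INK4c) 8.79 RPKM, so Cdkn1a, at 27.1 RPKM, came after the 3 most abundant inhibitors, and Cdkn2a and Cdkn2b had the lowest levels of the 7. The list of 18 genes held CDK inhibitors, cyclins, kinases, pocket proteins and the regulators E2f1, Trp53 and Bmi1. At an unadjusted p of 0.05 in edgeR, 0 of them were higher and 0 lower. Their median log2 fold change was -0.14, beside -0.0092 over all genes tested. Non-treated mouse 1 held the highest level of 11 of these 18 genes, and of 13.2% of all genes.

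Of 24 other targets of p53, the factor that induces Cdkn1a after DNA damage, 2 were higher and 1 was lower at an unadjusted p of 0.05, and the median log2 fold change was -0.02. Aen, a p53-induced nuclease, had 37.5 ± 2.85 CPM in NR-treated and 32.7 ± 2.53 CPM in non-treated mice (log2 fold change 0.20, edgeR adjusted p = 0.464). Plk2, a polo-like kinase, had 23.3 ± 6.34 against 15.8 ± 4.37 CPM (log2 fold change 0.56, edgeR adjusted p = 0.476). Sesn2, a stress-induced inhibitor of mTORC1 signalling, had 15.6 ± 0.432 against 18.9 ± 1.75 CPM (log2 fold change -0.28, edgeR adjusted p = 0.42), and every NR-treated mouse lay below every non-treated mouse, as was the case in one direction or the other for 1.65% of all genes. Phlda3, the most abundant of the list at 25.8 RPKM, had a log2 fold change of 0.19 (edgeR adjusted p = 0.661), and Mdm2, the ubiquitin ligase that limits p53, had -0.02 (adjusted p = 0.898).

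The 8 genes of the nuclear lamina and chromatin that are used as marks of senescence had 0 calls in either direction at an unadjusted p of 0.05 in edgeR, with a median log2 fold change of -0.05. Lmnb1, encoding lamin B1, which is commonly lost in senescent cells, was at 47.7 CPM in NR-treated and 53.4 CPM in non-treated mice (log2 fold change -0.16, standard error 0.188). For Hmgb2, a chromatin protein and the most abundant at 47.9 RPKM, the log2 fold change was -0.16 (SE 0.253). Non-treated mouse 1 held the highest level of 6 of the 8 genes.

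**Figure D1:**
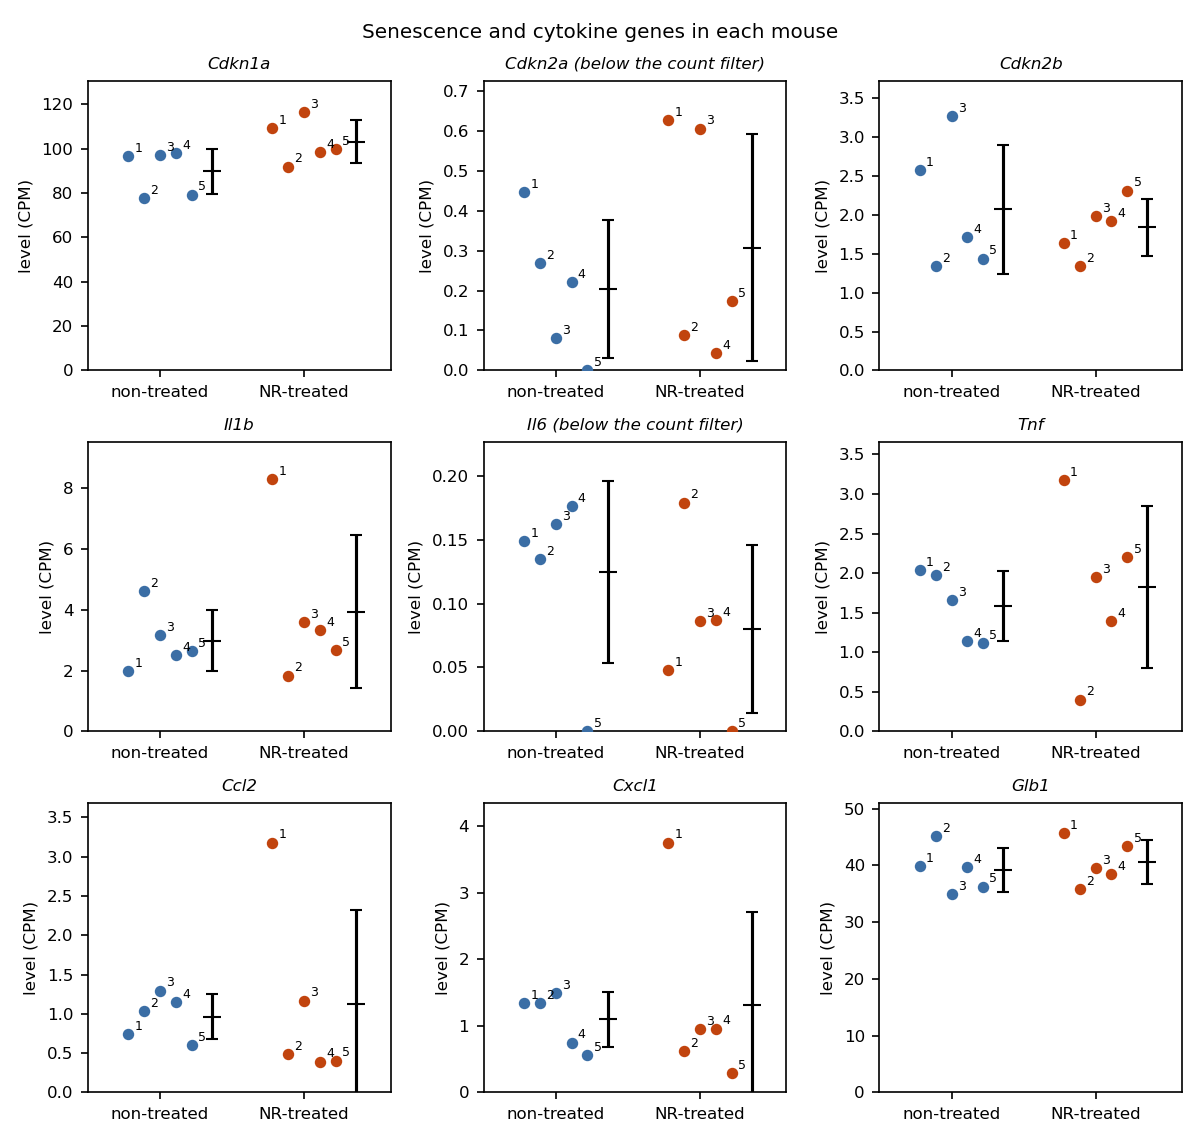
Level in CPM (vertical axis, from 0) of each of the 9 genes in each mouse, with the replicate number beside each point, non-treated mice in blue and NR-treated mice in red. Black marks give the mean and bars the SD of the 5 mice (bars that pass below 0 are cut there); NR-treated mouse 1 stands above the other mice for Il1b, Tnf, Ccl2 and Cxcl1, at 8.29, 3.18, 3.18 and 3.76 CPM.

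The cytokines and chemokines were low, differed more among NR-treated mice than between the groups, and none passed an unadjusted p of 0.05. Il1b (chromosome 2, 129364570 to 129371139, minus strand) encodes interleukin-1 beta, which is made as a precursor and cleaved by caspase-1. It had 8.29, 1.83, 3.59, 3.32 and 2.66 CPM in NR-treated mice 1 to 5 and 1.99, 4.62, 3.16, 2.51 and 2.65 CPM in non-treated mice 1 to 5. NR-treated mouse 1 was the highest of the 10 and NR-treated mouse 2 the lowest, and the other 8 mice were mixed. The mean was 3.94 ± 2.52 CPM against 2.99 ± 1.01 CPM (SD, n = 5 each), and the log2 fold change was 0.40 (standard error 0.381, 95% interval -0.44 to 1.24, edgeR adjusted p = 0.744). Without NR-treated mouse 1 it was -0.06.

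Tnf (chromosome 17, 35199381 to 35202007, minus strand) encodes tumor necrosis factor, a membrane-bound cytokine that is shed by ADAM17. It had 3.18, 0.403, 1.95, 1.40 and 2.20 CPM in NR-treated mice 1 to 5 and 2.04, 1.98, 1.66, 1.15 and 1.11 CPM in non-treated mice 1 to 5. As for Il1b, NR-treated mice 1 and 2 formed the 2 ends of the range. The log2 fold change was 0.20 (standard error 0.42, 95% interval -0.73 to 1.12, edgeR adjusted p = 0.892), and without NR-treated mouse 1 it was -0.10.

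Il6 (chromosome 5, 30013114 to 30019981, plus strand), the founding member of the cytokines that signal through gp130, received 1, 4, 2, 2 and 0 reads in NR-treated mice 1 to 5 and 3, 3, 4, 4 and 0 reads in non-treated mice 1 to 5. It was at or under 3 reads in 7 of the 10 mice, with 9 reads over the NR-treated and 14 over the non-treated group. In the fit of all genes with a read the log2 fold change was -0.54 with a standard error of 0.756 (edgeR adjusted p = 0.814), and no difference was detectable at this depth. Unlike the other cytokines it was not at its highest in NR-treated mouse 1, where 1 read was counted.

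Ccl2 (chromosome 11, 82035571 to 82037453, plus strand) encodes MCP-1, which draws monocytes through the receptor CCR2. It had 3.18, 0.492, 1.17, 0.393 and 0.405 CPM in NR-treated mice 1 to 5 and 0.745, 1.03, 1.30, 1.15 and 0.604 CPM in non-treated mice 1 to 5. NR-treated mice held both the highest value and the 3 lowest. The mean was 1.13 ± 1.19 CPM against 0.964 ± 0.285 CPM (SD, n = 5 each), a log2 fold change of 0.22 (standard error 0.563, 95% interval -1.02 to 1.46, edgeR adjusted p = 0.91). Without NR-treated mouse 1 the log2 fold change was -0.63 (edgeR adjusted p = 0.772).

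Cxcl1 (chromosome 5, 90891241 to 90893115, plus strand) encodes KC, which draws neutrophils through CXCR2. It had 3.76, 0.626, 0.952, 0.961 and 0.289 CPM in NR-treated mice 1 to 5 and 1.34, 1.35, 1.497, 0.750 and 0.557 CPM in non-treated mice 1 to 5. Again NR-treated mouse 1 was the highest, and NR-treated mouse 5 was the lowest. The log2 fold change was 0.26 (standard error 0.577, 95% interval -1.01 to 1.53, edgeR adjusted p = 0.895), and without NR-treated mouse 1 it was -0.61 (edgeR adjusted p = 0.781).

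Each of these 4 genes had a larger spread among NR-treated than among non-treated mice. The coefficient of variation in NR-treated and non-treated mice was 64.1% and 33.7% for Il1b, 56.1% and 27.7% for Tnf, 105.7% and 29.6% for Ccl2, and 105.7% and 37.9% for Cxcl1. For Cdkn1a it was 9.39% and 11.5%, for Glb1 9.734% and 10.07%, and for Cdkn2b 20.02% and 40.1%, larger in non-treated mice in each case. For Cdkn2a and Il6, which rest on few reads, it was 92.7% and 85.2% and 82.0% and 57.3%. The difference in spread between the groups was not tested, and it includes NR-treated mouse 1. That mouse held the highest level of 5 of the 7 members tested, against 12.4% of all genes.

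**Figure D2:**
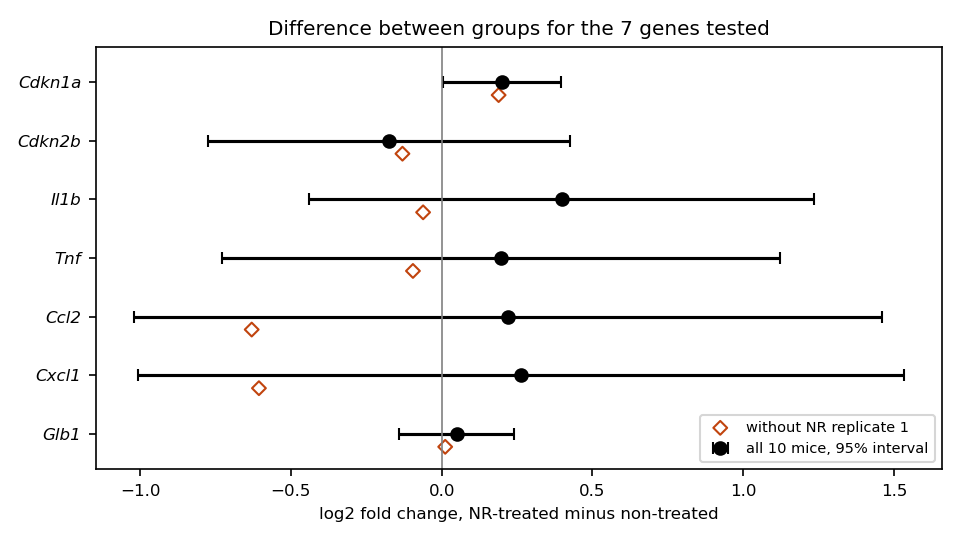
Log2 fold change, NR-treated minus non-treated (horizontal axis), of the 7 genes that passed the filter, with points and 95% intervals from the 10 mice and open diamonds for the same fit without NR-treated mouse 1. The interval of Cdkn1a lies above 0 (0.0059 to 0.40), the other 6 include 0, and without that mouse Il1b, Tnf, Ccl2 and Cxcl1 move below 0.

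Receptors of TNF and IL-6 were more abundant per length than their ligands. Tnfrsf1a, the main TNF receptor, had 29.7 RPKM and Il6st, encoding gp130, had 23.5 RPKM, beside 1.04 RPKM for Tnf and 0.0421 RPKM for Il6. Il1r1, the signalling receptor of IL-1, had 1.74 RPKM, Ccr2 1.51 RPKM and Cxcr2 4.12 RPKM. Of the 12 receptors and antagonists, 1 was higher and 0 were lower in NR-treated mice at an unadjusted p of 0.05, and the median log2 fold change was 0.10. The gene was Il6ra, the ligand-binding IL-6 receptor, with 33.7 CPM against 29.2 CPM (log2 fold change 0.20, standard error 0.0787, edgeR adjusted p = 0.476). Il1rn, the secreted antagonist of IL-1, had 5.39 against 3.71 CPM (log2 fold change 0.54, standard error 0.429, edgeR adjusted p = 0.694).

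Of 12 inflammasome and processing genes, 0 passed an unadjusted p of 0.05 in edgeR in either direction, and the median log2 fold change was 0.10. Casp1, the caspase that cleaves pro-IL-1 beta, had 6.57 CPM in NR-treated and 5.21 CPM in non-treated mice (log2 fold change 0.34, standard error 0.225), and Nlrp3, the sensor of its best known inflammasome, had 2.43 against 2.25 CPM. Ctss, a lysosomal protease of antigen-presenting cells and the most abundant of the list, ranged from 39.6 to 199.6 CPM over the mice (log2 fold change 0.22, standard error 0.402). NR-treated mouse 1 held the highest level of 9 of the 12 genes.

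Of 20 response and feedback genes of NF-kB and STAT3, 1 was higher and 0 were lower at an unadjusted p of 0.05, and the median log2 fold change was 0.05. It was Tnip1, an inhibitor of NF-kB signalling, with 66.6 CPM against 59.5 CPM (log2 fold change 0.16, standard error 0.0652, edgeR adjusted p = 0.476). Nfkbia, the inhibitor that NF-kB itself induces and the most abundant at 37.8 RPKM, had a log2 fold change of -0.11 (edgeR adjusted p = 0.766), and Socs3, the feedback gene of STAT3, had -0.02 (adjusted p = 0.989). NR-treated mouse 1 held the highest level of 15 of the 20 genes.

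Among other chemokines, 26 of 31 were tested, 0 were higher and 1 was lower, and the median log2 fold change was 0.10. The lower gene was Cxcl14, a chemokine made by epithelial and stromal cells, with 35.0 ± 4.07 CPM in NR-treated and 46.8 ± 3.26 CPM in non-treated mice (log2 fold change -0.42, standard error 0.0847, edgeR adjusted p = 0.32). Every NR-treated mouse lay below every non-treated mouse for Cxcl14. The platelet chemokine Ppbp was the most abundant per length at 106.0 RPKM (log2 fold change -0.31, edgeR adjusted p = 0.852), and Cxcl2 and Cxcl3, relatives of Cxcl1, were too low to test. NR-treated mouse 1 held the highest level of 14 of the 26.

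Of 31 other secreted genes described in senescent cells that could be tested, 3 were higher and 1 was lower at an unadjusted p of 0.05, and the median log2 fold change was 0.08. The matrix metalloproteinases Mmp13 and Mmp9 had 63.5 ± 24.9 against 31.8 ± 12.9 CPM (log2 fold change 1.00, edgeR adjusted p = 0.436) and 132.8 ± 49.3 against 73.0 ± 33.8 CPM (log2 fold change 0.86, edgeR adjusted p = 0.476). Csf1, the growth factor of macrophages, had 53.4 against 44.2 CPM (log2 fold change 0.27, edgeR adjusted p = 0.494). Hgf, hepatocyte growth factor, was lower, with 5.70 ± 1.24 against 9.12 ± 2.89 CPM (log2 fold change -0.68, edgeR adjusted p = 0.451). Spp1, encoding osteopontin, was the most abundant at 836.7 RPKM (log2 fold change -0.17, edgeR adjusted p = 0.676). Mmp13 is also made by osteoblasts and Mmp9 by neutrophils and osteoclasts, and of 10 osteoblast markers 6 had log2 fold changes above 0 and 4 below, 1 was higher at an unadjusted p of 0.05, and the median was 0.08. Their summed level was 521 to 2002 CPM in NR-treated and 330.1 to 851.5 CPM in non-treated mice, of which Col1a1, the most abundant, made up a mean of 818.5 and 244.5 CPM. Of 12 neutrophil markers 11 lay above 0 and 1 was higher at an unadjusted p of 0.05, with a median of 0.43. The part of osteoblast and neutrophil markers in the values of Mmp13 and Mmp9 was not tested.

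Together the 9 lists held 175 tested genes, of which 7 were higher and 3 lower at an unadjusted p of 0.05, which is 5.71% of them beside 9.71% of all genes. Leaving out NR-treated mouse 1 gave 3 higher and 8 lower, and leaving out NR-treated mouse 2 gave 15 higher and 5 lower. None of the 175 had an adjusted p of 0.05 or less in edgeR.

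**Figure D3:**
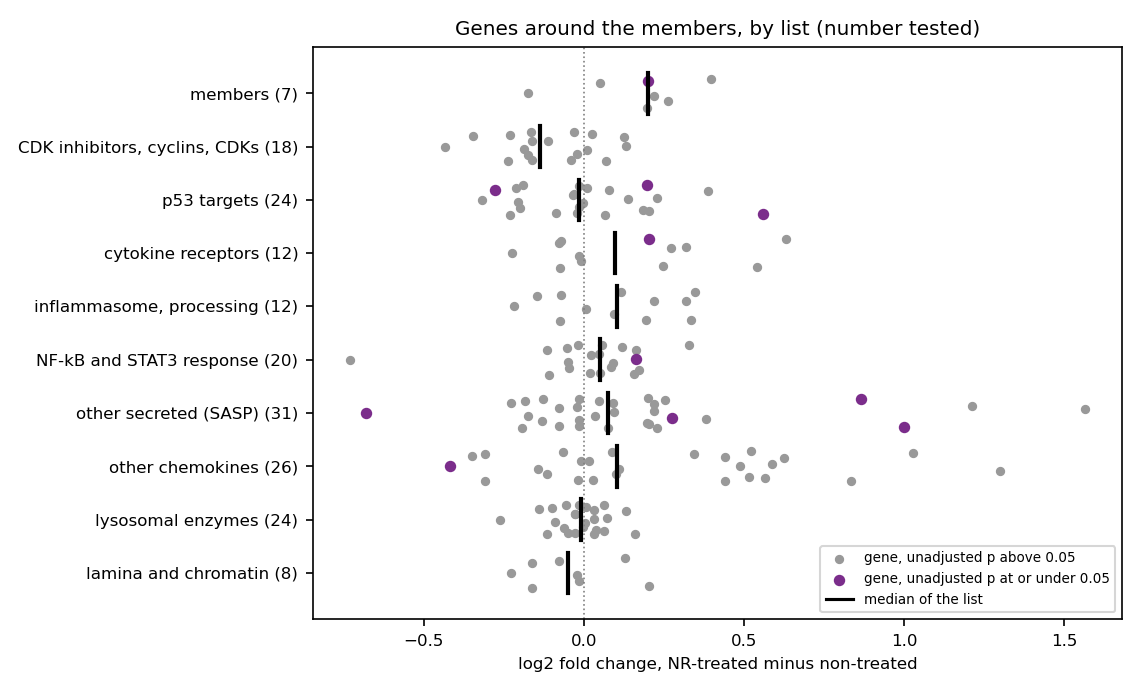
Log2 fold change, NR-treated minus non-treated (horizontal axis), of each tested gene of the members and of the 9 lists around them, with the number tested in brackets, grey points above and purple points at or under an unadjusted p of 0.05, and black lines at the median of each list. Medians of the 9 lists lie between -0.14 and 0.10, and 10 of their 175 genes are purple.

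Glb1 (chromosome 9, 114401076 to 114474898, plus strand) differed least between mice, with the highest 1.31 times the lowest. It had 45.7, 35.8, 39.6, 38.4 and 43.4 CPM in NR-treated mice 1 to 5 and 39.9, 45.1, 35.0, 39.6 and 36.3 CPM in non-treated mice 1 to 5. The groups covered the same range, with means of 40.6 ± 3.95 and 39.2 ± 3.95 CPM (SD, n = 5 each). NR-treated mice differed by 0.05 on the log2 scale with a standard error of 0.0866 and a 95% interval of -0.14 to 0.24 (edgeR adjusted p = 0.859), the narrowest interval among the members tested. Exons of Tmppe, on the same strand, cover 5.49% of the exonic bases of Glb1. Of 24 lysosomal glycosidases and their partners, 0 passed an unadjusted p of 0.05 in edgeR in either direction, and the median log2 fold change was -0.0098. Psap, encoding activator proteins of lysosomal enzymes and the most abundant at 827.3 RPKM, had a log2 fold change of 0.03 (SE 0.0872).

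Levels of the members were then set against marker levels of immune cells, since macrophages and neutrophils make several of these proteins. In bulk tissue, fewer cells of a type and less RNA per cell cannot be told apart. Of the 12 macrophage markers, 11 had log2 fold changes above 0 and 0 passed an unadjusted p of 0.05 in edgeR, with a summed level of 294.0 to 746.2 CPM in NR-treated and 367.4 to 483.3 CPM in non-treated mice. The highest sum was NR-treated mouse 1 and the lowest NR-treated mouse 2, the same mice that formed the ends of Il1b and Tnf. C1qa, a complement gene and the most abundant of the markers, ranged from 57.5 to 161.2 CPM. Of the 12 neutrophil markers, 11 had log2 fold changes above 0 and 1 was higher at an unadjusted p of 0.05 in edgeR. The median was 0.43, and 1 marker lay below 0. Their sums were 1532 to 5157 CPM in NR-treated mice (median 5017) and 1532 to 5998 CPM in non-treated mice (median 3134). Of the 8 monocyte markers, 6 lay above 0, 2 below, and 0 passed that threshold. They summed to 229.8 to 576.4 against 332.1 to 522.9 CPM.

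The 7 members tested were related over the 10 mice to 5 marker lists, of macrophages, neutrophils, monocytes, adipocytes and skeletal muscle. Of these 35 relations, 1 had an adjusted p of 0.05 or less. Il1b followed the macrophage markers with a Pearson r of 0.895 (permutation p = 0.00087, adjusted p = 0.0304) and a Spearman rho of 0.83 (permutation p = 0.00454, adjusted p = 0.103). Without NR-treated mice 1 and 2, the farthest from the median of the marker level, r was 0.577, and no relation of the 35 then had an adjusted p of 0.05 or less, so the size of r rests on those mice. Leaving out 1 mouse at a time, a run added after the values were seen, also left 0 of the 35 without NR-treated mouse 1 or 2 or non-treated mouse 1, 2 or 5, so the loss of the call is not particular to NR-treated mice 1 and 2, while 6 passed without non-treated mouse 3, 2 without NR-treated mouse 3 and 1 without each of the other 3 mice. With levels centred on the mean of each group r was 0.891. For Tnf the r with macrophage markers was 0.848 (permutation p = 0.0067, adjusted p = 0.0586) and fell to 0.52 without the same 2 mice. For Ccl2 it was 0.772 (permutation p = 0.0136, adjusted p = 0.0701) and fell to 0.366, and for Cxcl1 it was 0.651 (permutation p = 0.0474, adjusted p = 0.185) and fell to 0.0319. Glb1 had an r of 0.754 (permutation p = 0.00404, adjusted p = 0.0586), which was 0.661 without those mice. With monocyte markers its r was 0.77 (permutation p = 0.00572, adjusted p = 0.0586) and with neutrophil markers 0.753 (permutation p = 0.014, adjusted p = 0.0701). For Tnf these were 0.79 (permutation p = 0.0138, adjusted p = 0.0701) and 0.713 (permutation p = 0.0167, adjusted p = 0.0731). Without NR-treated mouse 2 and non-treated mouse 3, the farthest in both lists, they were 0.758 and 0.516 for Glb1 and 0.623 and 0.729 for Tnf. For Il1b they were 0.529 and 0.532 over all mice, and for Ccl2, Cxcl1, Cdkn1a and Cdkn2b between -0.109 and 0.275. Cdkn1a had an r of 0.444 with macrophage markers (permutation p = 0.194, adjusted p = 0.484) and Cdkn2b one of 0.0346 (permutation p = 0.929, adjusted p = 0.929). With skeletal muscle markers the r of Cdkn1a was 0.536 (permutation p = 0.109, adjusted p = 0.348) and with adipocyte markers 0.453 (permutation p = 0.194, adjusted p = 0.484). Without the 2 farthest mice of each list these were 0.24 and 0.714, and with levels centred on the group means 0.297 and -0.254.

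**Figure D4:**
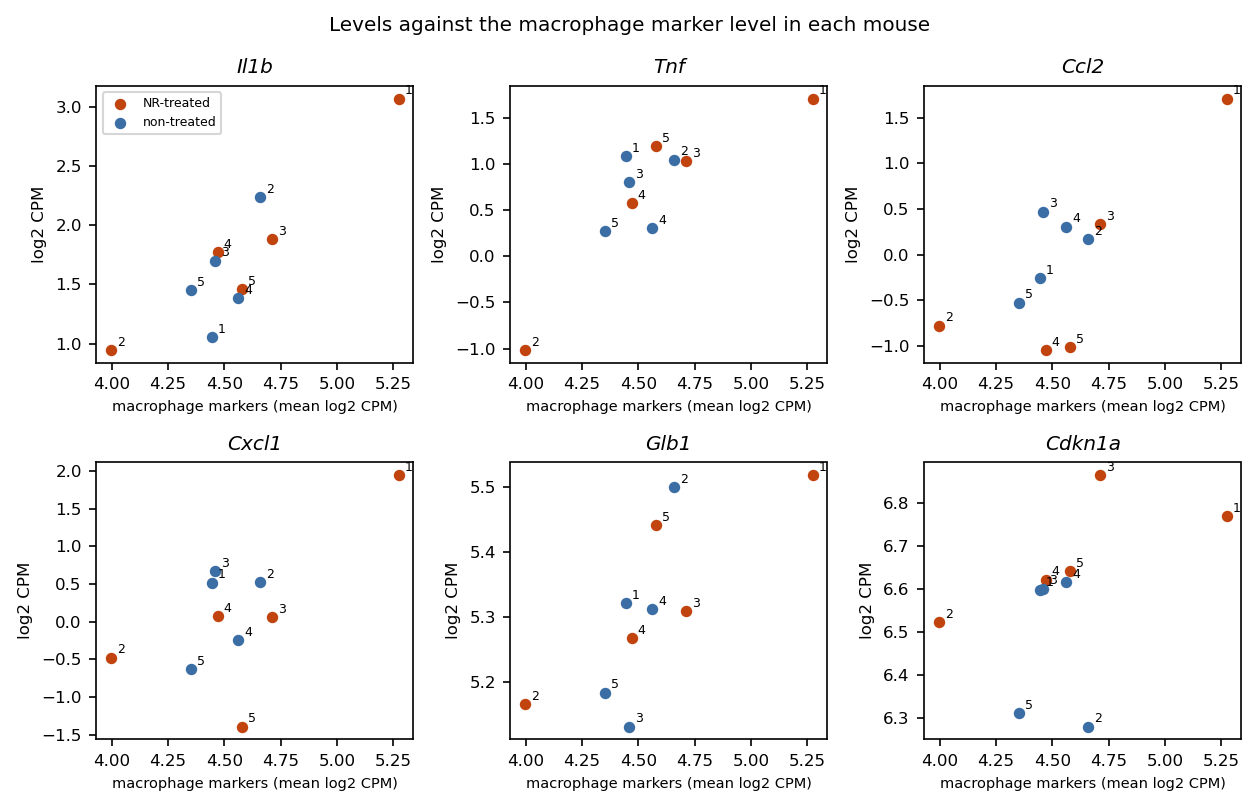
Log2 CPM of 6 of the genes (vertical axes) against the mean log2 CPM of 12 macrophage markers (horizontal axes) in each of 10 mice, NR-treated in red and non-treated in blue, with replicate numbers. NR-treated mouse 1 lies at the top right for Il1b, Tnf, Ccl2, Cxcl1 and Glb1 and NR-treated mouse 2 at the far left; r for Il1b is 0.895 over the 10 mice and 0.577 without both.

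Among the 21 pairs of members, chosen for testing after the values were seen, 0 had an adjusted p of 0.05 or less. The highest r was that of Ccl2 with Cxcl1, at 0.825 (permutation p = 0.00487, adjusted p = 0.102, rho 0.661 with permutation p = 0.0446, adjusted p = 0.469), which was 0.627 without NR-treated mouse 1. Il1b and Ccl2 had an r of 0.737 (permutation p = 0.0175, adjusted p = 0.126), which was 0.377 without that mouse.

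As a description, the genes most like each member were sought by Pearson r of log2 CPM over the 10 mice among 18328 others, which share the same libraries and depths. For Il1b they were Clec4n (0.962), C1rb (0.958) and Evi2a (0.95), of which Clec4n encodes the fungal receptor dectin-2 of myeloid cells. For Ccl2 they were Ntf5 (0.955), Ms4a7 (0.93) and Slamf8 (0.927), and the last pair are genes of macrophages. For Glb1 they were Upb1 (0.953), Cd84 (0.946) and Cd101 (0.94), of which the CD genes encode surface proteins of leukocytes. Cdkn1a was closest to Adam4 (0.949), Atg3 (0.933) and Gm16276 (0.923). Tnf was closest to Samhd1 (0.946), Adgrg5 (0.945) and Map3k11 (0.935), Cxcl1 to Med29 (0.964), 2010007H06Rik (0.943) and Morf4l2 (0.942), and Cdkn2b to the immunoglobulin segments Igkv1-110 (0.924) and Igkv6-15 (0.88) and to 4921514A10Rik (0.867).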

How the data were processed

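RNA-seq of the cochlea was analysed in 5 NR-treated and 5 non-treated mice. The authors deposited 1 file a mouse, with whole-number read counts for each gene and no normalization. Per the labels and the study's methods, poly(A) RNA libraries were sequenced at Novogene, aligned to mm10 with STAR version 2.6.1d and counted with featureCounts version 1.5.0 in its default mode, which ignores strand; fastp and CASAVA are also named in the submitters' processing notes. The annotation release is not given in the sources used here. In R version 4.3.3, genes passing filterByExpr were fitted with the quasi-likelihood test of edgeR version 4.0.16 after TMM normalization, comparing NR-treated with non-treated mice without covariates, and Benjamini-Hochberg adjustment over all 18329 genes. CPM use the TMM library size, log2 CPM a prior count of 2, and RPKM the gene length in the files. All genes with at least 1 read were fitted too, for Cdkn2a and Il6. The groups of a gene overlap unless every mouse of one lies beyond every mouse of the other. Relations used 100000 permutations, two-sided. Standard errors are the log2 fold change over the root of F. No pair of libraries was alike within sampling noise. Alternatives were DESeq2 version 1.42.0 (test and size factors), other filters, a robust fit, a replicate block and leaving out each mouse.

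The members and lists were chosen with earlier results of these data known. Beside the members, the text names the most abundant gene of each list, up to 4 genes with the smallest p at or under 0.05, the 3 genes most like each member, and list members that describe their list. Each mouse gave 1 library, and p-values set a difference or a relation against the variation between these mice.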

Additional observations from a re-analysis of the deposited data

Results flagged for a closer look

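The highest or lowest mouse was compared with its nearest neighbour in 28 groups of 5 mice (the 9 genes and 5 marker lists, in each treatment group). By Dixon's test on CPM, 7 stood apart. Chance flags about 5% of groups where values are normally distributed, which was not tested here, so the rate expected for these CPM is not known. NR-treated mouse 1 stood apart for Il1b (8.29 CPM, nearest 3.59), Ccl2 (3.18 CPM, nearest 1.17) and Cxcl1 (3.76 CPM, nearest 0.961). These 3 genes were measured in the same library, so the values are not independent of each other. Non-treated mouse 5 stood apart for Il6, with 0 CPM beside 0.135, a difference of 3 reads. NR-treated mouse 2 stood apart for summed neutrophil markers (1530 CPM, nearest 4350) and summed monocyte markers (230.0 CPM, nearest 487). Non-treated mouse 1 stood apart for summed skeletal muscle markers (89.3 CPM, nearest 23.3).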

How the results depend on the processing

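At this depth the low members carry wide errors: Ccl2 and Cxcl1 rest on as few as 7 and 5 reads in a mouse, and changes in Cdkn2a and Il6 could not be resolved. Leaving out 1 mouse in turn, the members higher at an unadjusted p of 0.05 numbered 0 to 1 and those lower 0 to 0; the lists held 3 to 15 higher and 3 to 8 lower; all genes had 669 to 1414 higher and 484 to 1059 lower; at an adjusted p of 0.05, 0 to 1 genes were higher, and relations to marker lists, run after seeing the data, numbered 0 to 6. DESeq2 called 52 genes higher and 50 lower at an adjusted p of 0.05. Without the filter 1414 genes were higher at an unadjusted p of 0.05. Without the 2 farthest mice 0 relations passed. The log2 fold change turned sign without NR-treated mouse 1 for Il1b (leave-one-out range -0.0615 to 0.616), Tnf (-0.0952 to 0.464), Ccl2 (-0.63 to 0.45) and Cxcl1 (-0.606 to 0.516), and without non-treated mouse 3 for Cdkn2b (-0.288 to 0.0708). With the replicate number as a block it was -0.18 for Ccl2 and -0.0787 for Cxcl1 and 0.20 for Cdkn1a (edgeR adjusted p = 0.529), and 879 genes were higher and 776 lower. Same-numbered mice deviated together with correlations of -0.22 to 0.17, so the numbers were not taken to pair the mice. Over all settings run, the adjusted p of Cdkn1a lay between 0.291 and 0.795. Requiring 1 CPM in 5 libraries left Ccl2 and Cxcl1 untested. CPM on the total count moved the mean of no member by more than the spread between mice. The cause of these changes was not tested.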
